A study of Mus musculus with 4 samples.

Results

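The 83 acinar cells of the Ogt knockout library of mouse embryonic pancreas were described here against the 478 other cells of the same library. They were chosen by a rule on measured values. A cell barcode was kept if it had 500 or more genes detected and no more than 10% of its unique molecular identifiers (UMIs, counted RNA molecules) in mitochondrial genes. It was called acinar with Cpa1 at 2500 CPM or more (the gene's per-million share of the cell's UMIs). The rule took 83 of 561 kept knockout cells, or 14.8% (95% exact binomial interval 11.96 to 18.0%), of 1558 barcodes in both libraries. The same rule took 33 of 925 kept cells of the WT library, or 3.57% (2.47 to 4.97%). The libraries held different mixes of cells, so these shares do not compare acinar cell numbers between genotypes.

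The knockout embryos were PdxCre;OGTflox/flox;CAG GFP, in which Cre is driven by a Pdx promoter, and their cells were sorted on the endogenous GFP. The controls, labelled WT, were OGTflox/flox embryos, which carry the same floxed Ogt alleles without a listed Cre, and their cells were sorted on E-cadherin GFP. Pancreas was taken on embryonic day 15.5 (E15.5). Both samples are labelled as pancreatic epithelium, and each genotype is 1 deposited table of cells from the 10x Genomics droplet platform, which holds 2 technical sequencing runs together. Each table is called a library here and treated as 1 sample. The number of embryos and of droplet libraries behind it is not given in the sources used here, the sort and the genotype cannot be told apart, and with 1 such sample per genotype no difference below has a replicate check or a p-value. Intervals are 95% intervals and cover counting error only. No barcode was shared between the libraries.

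Acinar cells make and secrete the digestive enzymes of the pancreas. In the embryo they arise at the tips of the branching epithelium, while the trunk gives duct and endocrine cells. The bHLH factor PTF1A with its partner RBPJL drives the enzyme genes, and Ogt encodes the transferase that adds O-linked N-acetylglucosamine to nuclear and cytosolic proteins.

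The label was checked against acinar markers. Of the 4 markers given for these cells, Cpa1 chose them and so checks nothing. The others were over 2-fold higher than in the other knockout cells: the zymogen protease gene Ctrb1, Ptf1a, and Serpina6, which encodes corticosteroid-binding globulin. In a clustering of all kept knockout cells, 73 of the 83 cells (88.0%) fell in the acinar-like cluster, whose 10 leading genes included Cela2a, Cel, Ptf1a, Cpa1, Rbpjl, Ctrb1 and Pnliprp1. The knockout library also held clusters resembling trunk and duct, endocrine cells, mesenchyme, mesothelium and leukocytes, although the label names epithelium. In the WT library, 47 cells fell in an acinar-like cluster and 64 in an endocrine-like cluster. Its other cells were leukocyte-like, erythroid-like, mesenchyme-like or in unnamed clusters, the largest of them led by genes including Lyve1 and Mrc1. The acinar cells held 2462044 UMIs in all and 5042, 29836 and 76396 UMIs per cell at the lowest, median and highest, against a median of 15391 in the other knockout cells. They had a median of 5002 detected genes and 2.86% mitochondrial UMIs.

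The promoters of the gene that defines the cells and of 3 enzyme genes high in them are shown as the sequence next to their transcript starts. PTF1, the complex of PTF1A, binds an E-box (CANNTG) together with a TC-box, which holds TGGGA. The windows run from 250 bases before to 50 bases after the RefSeq transcript start on GRCm38.p6 and are written 5′ to 3′ on the gene's own strand. Capitals mark every CANNTG or TGGGA on either strand, and matches of both motifs may share letters.
Cpa1 promoter, chr6:30638968-30639267, plus strand: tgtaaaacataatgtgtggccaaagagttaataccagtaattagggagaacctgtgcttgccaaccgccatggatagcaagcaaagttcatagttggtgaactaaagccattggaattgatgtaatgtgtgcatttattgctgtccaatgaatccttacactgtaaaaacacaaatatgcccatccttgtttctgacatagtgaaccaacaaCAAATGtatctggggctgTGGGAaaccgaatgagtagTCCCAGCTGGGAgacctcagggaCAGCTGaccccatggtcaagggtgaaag
Ctrb1 promoter, chr8:111690961-111691260, minus strand: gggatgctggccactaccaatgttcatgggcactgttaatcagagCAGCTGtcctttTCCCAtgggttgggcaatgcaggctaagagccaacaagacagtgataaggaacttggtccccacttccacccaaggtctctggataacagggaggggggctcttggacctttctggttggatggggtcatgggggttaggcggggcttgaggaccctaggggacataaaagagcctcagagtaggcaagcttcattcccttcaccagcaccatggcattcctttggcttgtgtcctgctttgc
Pnliprp1 promoter, chr19:58728637-58728936, plus strand: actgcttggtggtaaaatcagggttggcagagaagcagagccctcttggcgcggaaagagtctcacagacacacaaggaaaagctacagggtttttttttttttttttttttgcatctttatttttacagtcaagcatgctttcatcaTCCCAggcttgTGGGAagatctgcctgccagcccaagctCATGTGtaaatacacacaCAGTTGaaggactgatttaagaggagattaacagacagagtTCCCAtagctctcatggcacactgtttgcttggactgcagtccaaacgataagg
Cel promoter, chr2:28563354-28563653, minus strand: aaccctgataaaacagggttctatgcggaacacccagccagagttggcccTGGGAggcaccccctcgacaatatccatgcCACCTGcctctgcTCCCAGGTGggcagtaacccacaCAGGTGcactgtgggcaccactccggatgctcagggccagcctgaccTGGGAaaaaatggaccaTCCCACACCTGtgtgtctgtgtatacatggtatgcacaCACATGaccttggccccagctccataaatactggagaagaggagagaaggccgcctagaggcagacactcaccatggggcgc
Cpa1 held 3 E-boxes and 3 TGGGA, Ctrb1 held 1 of each, Pnliprp1 held 2 E-boxes and 3 TGGGA, and Cel held 5 E-boxes and 4 TGGGA. Of the 25 genes highest in the acinar cells over the other knockout cells, 19 had a window in the RefSeq table, with 20 windows among them. An E-box stood in 75% of these windows, TGGGA in 90% and both in 70%, against 72.3%, 61.6% and 45.5% of all 32851 windows of 27025 genes. These are letter matches only, with no test of the spacing between motifs, and the E-box alone was about as frequent in all windows as in the 20.

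Cpa1, which encodes carboxypeptidase A1, was at 2548 CPM in the lowest acinar cell, 6840 in the median cell and 32670 in the highest, against a median of 880 in the other knockout cells. The 5 cells just inside the threshold had 2548, 2679, 3080, 3089 and 3122 CPM, and the 5 just outside had 2469, 2444, 2432, 2325 and 2295 CPM. The threshold therefore cuts through a range of values: 29 of the other cells lay between 1500 and 2500 CPM, and 21 acinar cells reached 10000 CPM. The gene lies at chr6:30639218-30645363 on mm10 (plus strand).

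The digestive enzymes together, Cpa1 among them, left few cells of other clusters within the acinar range. Because Cpa1 chose the cells, part of this separation was set by the rule. They took 1.23% of a cell's UMIs in the lowest acinar cell, 3.91% in the median cell and 14.2% in the highest. In the 79 other trunk and duct-like cells the values were 0.566, 0.742 and 1.54%, and 1 of these cells passed the lowest acinar cell. In the 80 other leukocyte-like cells, a type that does not make these enzymes, the median was 0.730% and the highest 1.33%, and 2 of them passed the lowest acinar cell, as did 2 of 42 endocrine-like cells. A share near that median is here called the free-RNA level, that is RNA outside cells caught in droplets. The 19 cells of the acinar-like cluster that missed the Cpa1 rule had 1.57, 2.45 and 4.36%, all over the lowest acinar cell. Their Ctrb1 ran from 3331 to 15432 CPM with a median of 6666, and their Cpa1 from 752 to 2469 CPM. Cells with acinar enzymes but less Cpa1 therefore stand among the other knockout cells.

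**Figure D1:**
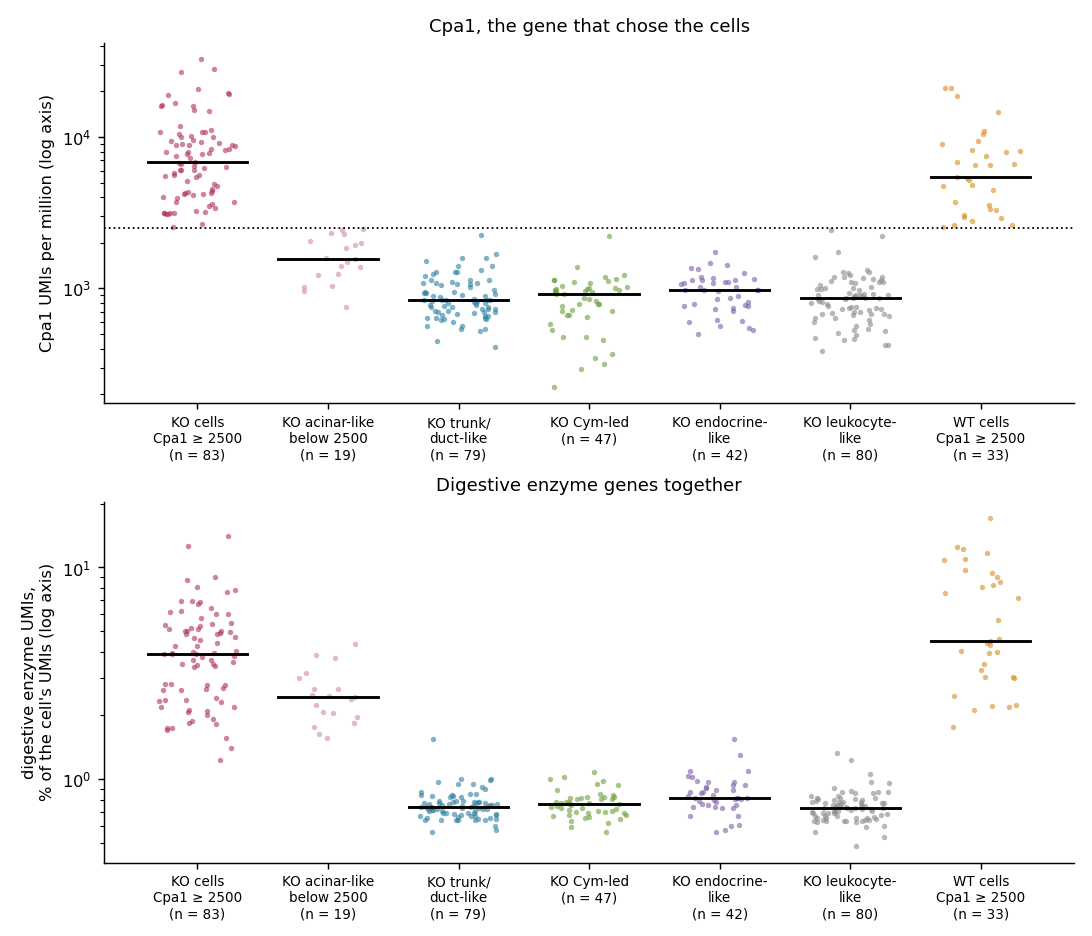
Cpa1 in CPM (top) and the percentage of a cell's UMIs in digestive enzyme genes (bottom), both on log axes, with 1 point per cell by class, a black bar at each median and a dotted line at 2500 CPM. The acinar cells have median values of 6840 CPM and 3.91%, and the 19 other cells of the acinar-like cluster lie under the Cpa1 line but at 1.57 to 4.36% enzyme UMIs.

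Of the 83 cells, 10 fell outside the acinar-like cluster: 8 in the trunk and duct-like cluster, 1 in an unnamed cluster led by genes including Cym (chymosin), and 1 in a leukocyte-like cluster. They were shallower, with a median of 14508 UMIs against 30923 in the 73 others. Their Cpa1 median was 4221 CPM against 7673 CPM, and their Ctrb1 median 2544 CPM against 9387 CPM. Spp1, the secreted phosphoprotein gene that leads the trunk and duct-like cluster, had a median of 1181 CPM in the 10 cells, against 331 CPM in the 73 and 2949 CPM in the other trunk and duct-like cells. The 1 leukocyte-like cell had 8625 CPM of the mast cell protease gene Cma1 and 8099 CPM of Cpa3, and it held 54.3% of the Cma1 UMIs and 57.9% of the Cpa3 UMIs of all 83 cells. Scrublet marked 1 of the 83 cells as a doublet, a cell of the acinar-like cluster, and no cell was removed.

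Across all genes, levels were set as CPM of the UMIs summed over a group's cells, genes with 50 or more UMIs over both groups were measured, and a gene was called higher or lower at a 2-fold ratio after 10 CPM were added to both sides. Of 10990 genes measured against the other knockout cells, 114 (1.04%) were higher and 698 (6.35%) lower in acinar cells, with a median log2 ratio of -0.27. With TMM scaling 210 were higher and 385 lower, and with DESeq2 scaling 225 and 363, which moved the median by 0.24 and 0.27 on the log2 scale. Because Cpa1 chose the cells, this contrast describes them and tests nothing. Of 40 measured genes on the acinar lists, 31 were higher and 0 lower, with a median log2 ratio of 1.70.

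The pancreatic carboxypeptidase genes Cpa1 and Cpb1 were higher. Cpa1 was at 8664 CPM in the acinar cells against 954 CPM in the other knockout cells, a ratio of 9.08 (8.85 to 9.32). Cpb1, carboxypeptidase B1, was at 60.5 CPM against 22.3 CPM.

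All 4 measured chymotrypsinogen and elastase genes were higher. Ctrb1 (chymotrypsinogen B1) was at 1952, 8466 and 41493 CPM in the lowest, median and highest acinar cell. Its summed level was 11695 CPM against 2419 CPM in the other knockout cells, a ratio of 4.83 (4.75 to 4.92). Every acinar cell lay above the 1904 CPM that the leukocyte-like cells held as a class. The highest single trunk and duct-like cell had 3153 CPM, above the lowest acinar cell. Cela2a, an elastase gene, was at 258 CPM against 20.02 CPM, a ratio of 12.9 (10.8 to 15.4), but its cells ran from 0 to 3181 CPM with a median of 87.5. Cela3b was at 359 CPM against 62.4 CPM and Cela1 at 461 CPM against 127 CPM. The other 3 members of the list, Ctrc, Ctrl and Cela3a, were under the minimum of 50 UMIs.

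Among lipid-digesting genes, 3 of 4 measured were higher. Pnliprp1, a pancreatic lipase-related protein, was at 2104, 7257 and 21397 CPM per cell at the lowest, median and highest, and its summed level was 8394 CPM against 1904 CPM, a ratio of 4.41 (4.32 to 4.50). Clps, the colipase that anchors lipase to fat droplets, was at 1962, 7423 and 36352 CPM per cell, and at 9095 CPM against 2297 CPM in sum. Cel, the bile salt-activated lipase, was at 93.2, 558 and 7038 CPM per cell, and at 894 CPM against 131 CPM in sum, a ratio of 6.83 (6.35 to 7.36). The leukocyte-like cells held 1499 CPM of Pnliprp1, 1837 CPM of Clps and 96.4 CPM of Cel. Taking such levels as the free-RNA level, every acinar cell was above it for Pnliprp1 and Clps, and the lowest acinar cell was just under it for Cel. These are levels of the class, not of single cells. The highest trunk and duct-like cell had 5522 CPM of Clps and the highest for Pnliprp1 had 3199 CPM, above the lowest acinar cells.

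All 5 measured trypsinogen genes were higher. Prss2 was at 725 CPM against 197 CPM in the other knockout cells, Try5 at 195 CPM against 60.1 CPM, Try10 at 156 CPM against 35.4 CPM, Prss1 at 103 CPM against 30.4 CPM and Prss3 at 37.4 CPM against 6.59 CPM. Trypsinogen genes are near-identical copies, so reads could have been split among them. Spink1, the trypsin inhibitor made with them, was at 1106 CPM against 346 CPM. Amylase transcripts were few: Amy1 was at 9.34 CPM and Amy2a5 at 10.6 CPM in acinar cells, and 1 of the 7 amylase and ribonuclease genes in the table, Rnase1, reached the minimum of 50 UMIs, at 12.6 CPM against 3.54 CPM and under the 2-fold call.

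**Figure D2:**
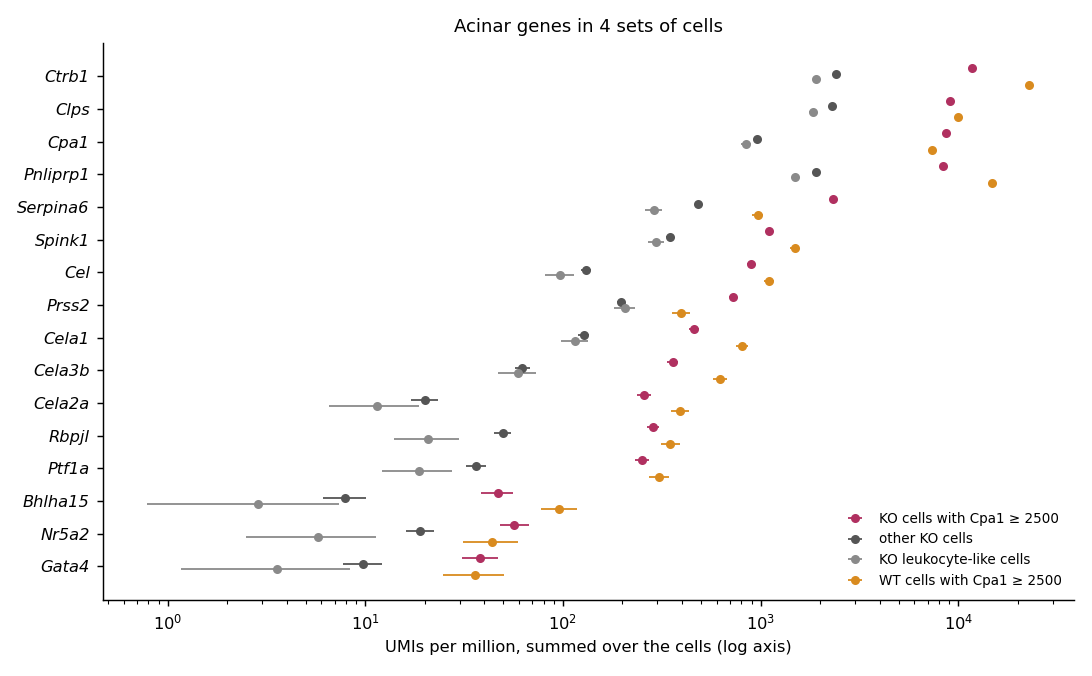
Summed level of 16 acinar genes in CPM (log axis) in the knockout acinar cells, the other knockout cells, the leukocyte-like knockout cells and the WT cells chosen by the same rule, with exact Poisson 95% bars. The acinar cells are above the other knockout cells for every gene plotted, from Ctrb1 at 11695 against 2419 CPM to Gata4 at 38.2 against 9.77 CPM.

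Beyond the enzymes, 12 of 16 measured secretory and membrane genes of the acinar list were higher and 0 lower. Serpina6 was at 280, 1272 and 15573 CPM in the lowest, median and highest acinar cell, and its summed level was 2325 CPM against 484 CPM in the other knockout cells, a ratio of 4.80 (4.61 to 5.0). It lies at chr12:103646630-103657212 on mm10 (minus strand). Reg1, a secreted lectin, was at 212 CPM against 35.2 CPM, and Serpini2, a pancreatic serpin, at 220 CPM against 39.4 CPM. The ER protein gene Erp27 was at 180 CPM against 42.5 CPM. Cldn10, a tight-junction claudin, was at 429 CPM against 140.2 CPM, and Cckar, the cholecystokinin receptor, at 143 CPM against 36.0 CPM, a ratio of 3.98 (3.40 to 4.66).

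Several genes among the 25 highest are known for other roles. Vtn, which encodes the plasma and matrix protein vitronectin, was at 0, 217 and 2248 CPM per cell, and at 372 CPM against 70.2 CPM in sum, a ratio of 5.30 (4.77 to 5.89). Gc, the vitamin D-binding protein, was at 320 CPM against 71.7 CPM. Both are genes of the liver too, and the 6 measured genes of the liver list held 0 higher and 0 lower, with a median log2 ratio of 0.06. Enzymes of small-molecule metabolism stood beside them: Gamt, of creatine synthesis, at 469 CPM against 105 CPM, Cbs, of transsulfuration, at 128 CPM against 27.1 CPM, and the glutathione transferase gene Gstm1 at 593 CPM against 158 CPM. P2rx1, an ATP-gated channel, was at 177 CPM against 32.8 CPM, and Arhgdig, an inhibitor of small GTPases, at 206 CPM against 41.0 CPM. Chst2, Tmem97 and Tsga10ip complete the list of genes not on the acinar lists, at 171, 535 and 66.6 CPM against 38.2, 143 and 10.0 CPM.

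The acinar regulators were present in most of the cells. Ptf1a was at 0, 208 and 624 CPM in the lowest, median and highest acinar cell, and at 252 CPM against 36.3 CPM in the other knockout cells in sum, a ratio of 6.94 (6.04 to 8.0). After each cell was thinned to 5000 UMIs, a Ptf1a UMI was found in 60.2% of acinar cells (48.9 to 70.8%), 12.2% of other knockout cells and 7.59% of leukocyte-like cells. Without thinning the shares were 92.8, 29.5 and 23.8%, at median depths of 29836, 15391 and 15891 UMIs. Rbpjl, its partner, was at 286 CPM against 49.7 CPM and was found in 75.9% of thinned acinar cells against 14.9% of the other knockout cells and 8.86% of leukocyte-like cells. Ptf1a lies at chr2:19445663-19447501 on mm10 (plus strand).

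Of 8 measured acinar transcription factors, 5 were higher, 0 were lower and the median log2 ratio was 1.25. Bhlha15 (MIST1), a regulator of the secretory apparatus, was at 46.7 CPM against 7.94 CPM, a ratio of 5.89 (4.31 to 8.11). Nr5a2, an orphan nuclear receptor, was at 56.9 CPM against 18.9 CPM, and Gata4 at 38.2 CPM against 9.77 CPM. Xbp1, the secretory stress regulator, was at 377 CPM against 196 CPM and stayed under 2-fold, while Creb3l1 was at 28.4 CPM against 65.4 CPM and Foxp2 at 4.47 CPM against 9.16 CPM. The thinned shares ran the same way for Bhlha15 (22.9% against 1.68%), Nr5a2 (24.1% against 5.66%) and Gata4 (22.9% against 3.56%). Leukocyte-like cells gave 1.27% for Bhlha15, 1.27% for Nr5a2 and 0% of 79 cells for Gata4. Mecom, a zinc-finger factor that was not on the list, had a UMI in 26.5% of thinned acinar cells against 3.35% of the other knockout cells.

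Progenitor and trunk regulators were seldom called, near the shares over all genes (1.04% higher and 6.35% lower). Of 19 measured, 0 were higher and 1, Nkx6-1, was lower, at 15.4 CPM in acinar cells against 41.0 CPM in the other knockout cells and 209 CPM in the endocrine-like cells. Their median log2 ratio was 0.24, and it was -0.30 once leukocyte-like, mesenchyme-like and mesothelium-like cells were left out of the other cells. Sox9 was at 65.8 CPM against 64.6 CPM, with 148 CPM in the trunk and duct-like cells, and Hes1, a Notch target, at 416 CPM against 325 CPM, with 632 CPM there. Pdx1 was at 44.3 CPM against 26.7 CPM. Of 18 measured trunk and duct genes 6 were lower and 1 higher. Spp1 was at 417 CPM against 1137 CPM and 3392 CPM in the trunk and duct-like cells, with 375 CPM in leukocyte-like cells. The higher gene was Ambp, a plasma protein precursor, at 628 CPM against 301 CPM.

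Many markers of endocrine, mesenchyme, mesothelium and leukocyte cells were lower in the acinar cells. The counts were 15 of 19 measured endocrine hormone and granule genes lower (median log2 ratio -1.63), 5 of 14 endocrine progenitor genes, 14 of 17 mesenchyme genes (-1.73), 6 of 7 mesothelium genes and 13 of 15 leukocyte genes (-1.99), with 0 higher in each list. The low genes were not absent. Col1a1, a collagen of mesenchyme, was at 115 CPM against 1111 CPM, the hormone gene Gcg at 15.8 CPM against 172 CPM, and the lysozyme gene Lyz2 at 147 CPM against 1086 CPM. Set against epithelial clusters alone, Col1a1 had a log2 ratio of 0.25, so its direction depended on which cells it was set against. The mesenchyme median turned to 0.07 there, and the leukocyte median ranged from -2.47 to -0.07 over the alternatives.

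Few secretory pathway genes reached the 2-fold call, and so did few of all genes measured (1.04% higher and 6.35% lower). Of the digestive enzymes, 15 of 17 measured were higher. Of 22 measured genes of the unfolded protein response and ER folding, 1 was higher (Edem1, at 83.7 CPM against 33.3 CPM in the other knockout cells) and 0 lower, with a median log2 ratio of 0.19. The median of all genes measured was -0.27. Of the 22 genes 16 lay above 0, and the list median stayed positive over the alternatives (0.099 to 0.59). Of 35 measured translocation and vesicle genes, 1 was higher (Tmed6, a p24-family cargo protein, at 234 CPM against 65.4 CPM) and 1 lower, with a median of 0.05. The ER chaperone gene Hspa5 was at 691 CPM against 728 CPM. In the integrated stress response list 2 of 12 measured genes were higher, among them Asns, asparagine synthetase, at 186 CPM against 54.1 CPM (ratio 3.43, 3.0 to 3.92), and 1 was lower.

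Cell division genes were seen in part of the acinar cells. At 5000 UMIs per cell, 34 of the 83 cells (41.0%, 30.3 to 52.3%) had at least 10 UMIs of the mitosis list, against 49 of 79 trunk and duct-like cells (62.0%, 50.4 to 72.7%), 5 of 47 cells of the Cym-led cluster (10.6%) and 1 of 42 endocrine-like cells (2.38%). The acinar share lay between them. It was 128 of 477 (26.8%, 22.9 to 31.1%) in all other knockout cells. For the replication list the shares were 43.4% in acinar cells, 48.1% in trunk and duct-like cells and 35.4% in all other knockout cells. On the mitosis list 26 of the 83 cells stood at 8 to 12 UMIs, near the limit. In summed levels 0 of 30 mitosis genes and 0 of 26 replication genes were called, and the sign of both medians (-0.19 and -0.15) turned under TMM and DESeq2 scaling.

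Ogt itself was detected in the knockout acinar cells. It had 101 UMIs, or 41.0 CPM (33.4 to 49.8), against 61.4 CPM in the other knockout cells, 51.1 CPM in the leukocyte-like cells and 30.6 CPM in the WT cells chosen by the same rule. The ratio over the WT cells was 1.34 (0.876 to 2.12), an interval that holds equal levels. The labels do not say which exons are deleted, and a tag near the transcript's end may lie outside them, so this level does not check the deletion. Mgea5 (Oga), whose enzyme removes the same sugar, was at 17.9 CPM against 28.1 CPM in the other knockout cells and 18.6 CPM in the WT cells. Of 11 measured genes of O-GlcNAc cycling and hexosamine synthesis, 0 were called (median log2 ratio -0.45).

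The 83 cells varied much more in some enzymes than in others. Spread was measured as the squared coefficient of variation of CPM over cells, less the part that counting error gives. Of 2928 genes with at least 100 UMIs in the acinar cells, 51 (1.74%) had an excess of at least 1, and the median was 0.051. Among enzymes found in all 83 cells the excess was 0.60 for Ctrb1, 0.51 for Clps and 0.31 for Pnliprp1, each above that median, and 1.43 for Cel. The regulators Ptf1a (0.21) and Rbpjl (0.07) had less.

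Other enzymes were carried largely by a few cells. The excess was 4.90 for Cela3b, 3.95 for Cela2a, 3.93 for Prss1, 2.80 for Try5, 2.79 for Try10 and 2.52 for Prss2. The 5 highest of the 83 cells held 54.8% of all Cela3b UMIs, 53.9% of Cela2a, 49.2% of Prss1 and 43.8% of Prss2, against 20.8% of Ctrb1 and 18.8% of Pnliprp1. Cela3b, for example, had a median of 158 CPM and a highest value of 5481 CPM, and Prss2 a median of 255 CPM and a highest value of 5744 CPM. Serpina6 (1.41) and Vtn (1.25) lay between these values.

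The same few cells were high for many of these genes. With cells numbered by their Cpa1 rank, cell 3 was among the 5 highest for 10 of 17 acinar genes, cell 1 for 9, cell 13 for 8 and cell 25 for 6, all in the acinar-like cluster and none marked as a doublet. Their depths were 49446, 27426, 35015 and 31850 UMIs, inside the range of the rest. Other genes of high spread were of no acinar list. The mast cell genes Cpa3 (43.4) and Cma1 (41.4) rested on the leukocyte-like cell. Gfod2 (23.0) had 89.6% of its UMIs in 5 cells. Krt20, an intestinal-type keratin, had an excess of 9.63 and 74.5% of its UMIs in 5 cells. By CPM, the cells highest for Krt20 were 3, 1, 25, 13 and 2, with 870 CPM in the highest. These are also cells high for many enzymes.

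Enzymes varied together over cells, but not all alike. Spearman correlations of CPM over the 83 cells are descriptions, since the cells share 1 library and each gene shares its cell's total. Ctrb1 and Pnliprp1 gave 0.62 over the 83 cells, 0.54 in the 73 of the acinar-like cluster and 0.58 after thinning. Clps gave 0.62 with Pnliprp1 and 0.62 with Spink1. Cpa1, by which the cells were chosen, gave 0.22 with Ctrb1 and 0.40 with Serpina6. The enzymes of digestion thus ranked the cells more like each other than Cpa1 did in these pairs.

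Serpina6 had its own companions. It gave 0.64 with Vtn over the 83 cells, 0.61 in the acinar-like cluster and 0.51 after thinning. With Id1, an inhibitor of bHLH factors, it gave -0.42, -0.44 and -0.40. In the 33 WT cells Serpina6 and Vtn gave 0.54, and Serpina6 and Id1 gave 0.32, of the opposite sign. The difference between the libraries was not tested. Pnliprp1 and Spp1 gave -0.54 in the 83 cells, but -0.39 in the acinar-like cluster and -0.28 after thinning.

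**Figure D3:**
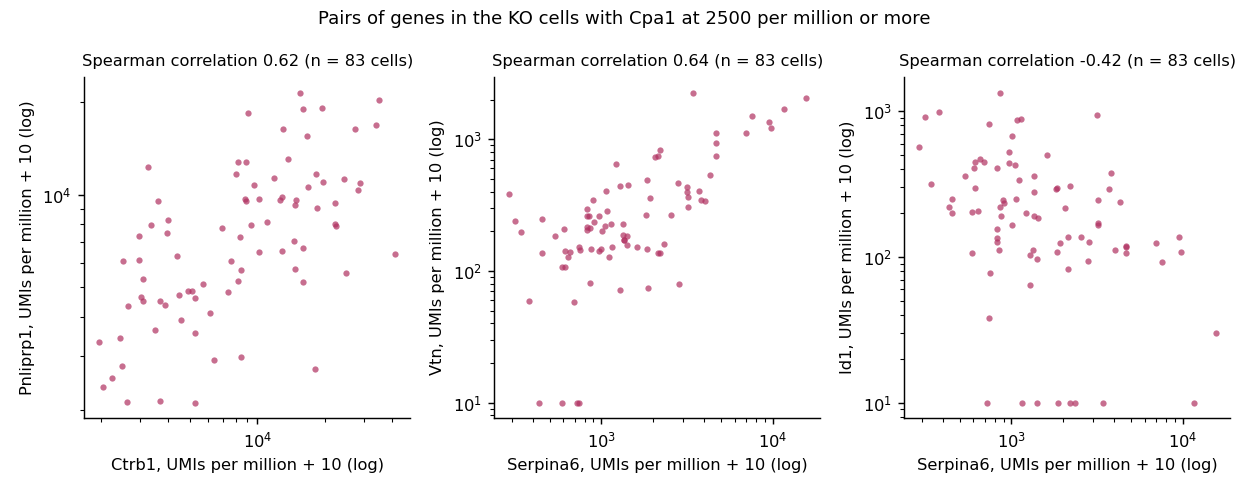
Levels of Ctrb1 and Pnliprp1, Serpina6 and Vtn, and Serpina6 and Id1 in each of the 83 knockout acinar cells, in CPM plus 10 on log axes, with 1 point per cell. The first 2 pairs run upward (Spearman 0.62 and 0.64) and the third downward (-0.42).

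Against the 33 WT cells chosen by the same rule, some acinar genes were lower and many were close. Of the WT cells 29 lay in the WT library's acinar-like cluster and 4 in its endocrine-like cluster, with a median of 27238 UMIs per cell. Of 5984 genes measured, 127 (2.12%) were higher and 132 (2.21%) lower in knockout acinar cells, with a median log2 ratio of 0.04. Of the 44 measured acinar genes, 13 were lower and 1 higher, with a median of -0.40. The lower genes were 4 of 5 trypsinogens, all 5 measured amylase and ribonuclease genes, Cela3a, Cpb1, Pdia2 and Aqp8. Several genes of lower spread were not called: Clps was at 9095 CPM against 9960 CPM in WT cells, Ptf1a at 252 CPM against 307 CPM and Rbpjl at 286 CPM against 349 CPM. Ctrb1, with a median of 8466 CPM in knockout cells against 15053 CPM in WT cells and overlapping ranges, had a ratio of 0.513 (0.504 to 0.522).

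The enzymes that few cells carried did not all differ alike. Cela2a had a ratio of 0.656 (0.576 to 0.749) and Cela3b of 0.575 (0.517 to 0.640), both under the 2-fold call. Prss1 was at 0, 42.5 and 1605 CPM in knockout cells against 0, 97.8 and 8739 CPM in WT cells, and its summed ratio was 0.0967 (0.0839 to 0.111), a log2 ratio of -3.37. Without each group's 5 highest cells the log2 ratio was -1.61. Cela3a had 8 UMIs in 5 of 83 knockout cells against 93 UMIs in 18 of 33 WT cells, a ratio of 0.0320 (0.0134 to 0.0657). At 5000 UMIs per cell it was found in 0 of 83 knockout cells, against 7 of 33 WT cells. The exact binomial interval of the knockout share reaches up to 4.35%. Among trypsinogens Prss2 ran the other way. It was at 725 CPM against 394 CPM, a ratio of 1.84 (1.64 to 2.07), although the knockout leukocyte-like cells held 205 CPM of it and the WT ones 27.9 CPM. Without each gene's 5 highest cells, the log2 ratios of Cpb1 (-0.48), Prss3 (-0.61) and Try5 (-0.68) stayed negative but under 2-fold. So did that of Tmem245 (-0.77), a membrane protein gene at 23.2 CPM against 168 CPM with all cells. Over 12 alternatives the log2 ratio of Tmem245 ran from -2.96 to -0.49, and it was under 2-fold in 3 of them. For Prss1 and these genes, 5 cells are a larger part of the 33 WT cells than of the 83 knockout cells. Leaving out the 5 highest cells therefore trims the WT group more, and it does not show how much of a difference rests on few cells.

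Serpina6, Vtn and Id1 were higher in the knockout acinar cells. Serpina6 was at 280, 1272 and 15573 CPM in knockout cells against 61.9, 636 and 5224 CPM in WT cells, a ratio of 2.41 (2.24 to 2.59). Leukocyte-like cells held 288 CPM of it in the knockout library and 44.4 CPM in the WT library. Vtn had a ratio of 2.73 (2.26 to 3.31). Id1 was at 0, 190 and 1334 CPM in knockout cells, against a median of 61.9 CPM in WT cells. The ratio was 2.81 (2.26 to 3.53). The serpin gene Serpina1b was at 236 CPM in knockout acinar cells and 82.0 CPM in knockout leukocyte-like cells, against 19.7 CPM in WT cells. Krt20 was at 41.4 CPM against 1.09 CPM, which was 1 UMI in the WT cells. Free RNA differed between the libraries and its part was not tested: 7 of 10 measured mesenchyme genes were higher and 10 of 14 leukocyte genes lower (3 higher) in the knockout cells, and Col3a1 was at 234 CPM in knockout acinar cells and 270 CPM in knockout leukocyte-like cells, against 9.82 CPM in WT cells. The sex of the embryos is not given. The Y-linked genes Ddx3y and Eif2s3y had 0 UMIs in the knockout acinar cells and in the other knockout cells. The WT cells chosen by the same rule had 20 and 17 UMIs. A difference in sex thus cannot be told apart from genotype here, also for Ogt, which lies on the X chromosome.

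The shares of cells with mitosis genes had overlapping intervals: 34 of 83 knockout cells (41.0%, 30.3 to 52.3%) and 17 of 33 WT cells (51.5%, 33.5 to 69.2%) passed the mitosis limit. In summed levels all 29 measured mitosis genes had a log2 ratio below 0, with a median of -0.50 (-0.66 to -0.15 over the alternatives), and 1, Ube2c, was lower by the 2-fold call. The replication list ran the other way, with 18 of 23 measured genes above 0 and 5 below. Its median was 0.23 (0.053 to 0.37 over the alternatives), and 0 genes were called. Its limit was passed by 43.4% of knockout cells (32.5 to 54.7%) and 30.3% of WT cells (15.6 to 48.7%). Of 21 measured unfolded protein response genes 2 were lower and 0 higher (median log2 ratio -0.50). Both, Edem1 at 83.7 CPM against 192 CPM and Sdf2l1 at 199 CPM against 458 CPM, help clear or fold proteins in the ER. The enzyme share of UMIs had a median of 3.91% in knockout cells and 4.49% in WT cells, and 22 of the 33 WT cells lay above the knockout median.

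**Figure D4:**
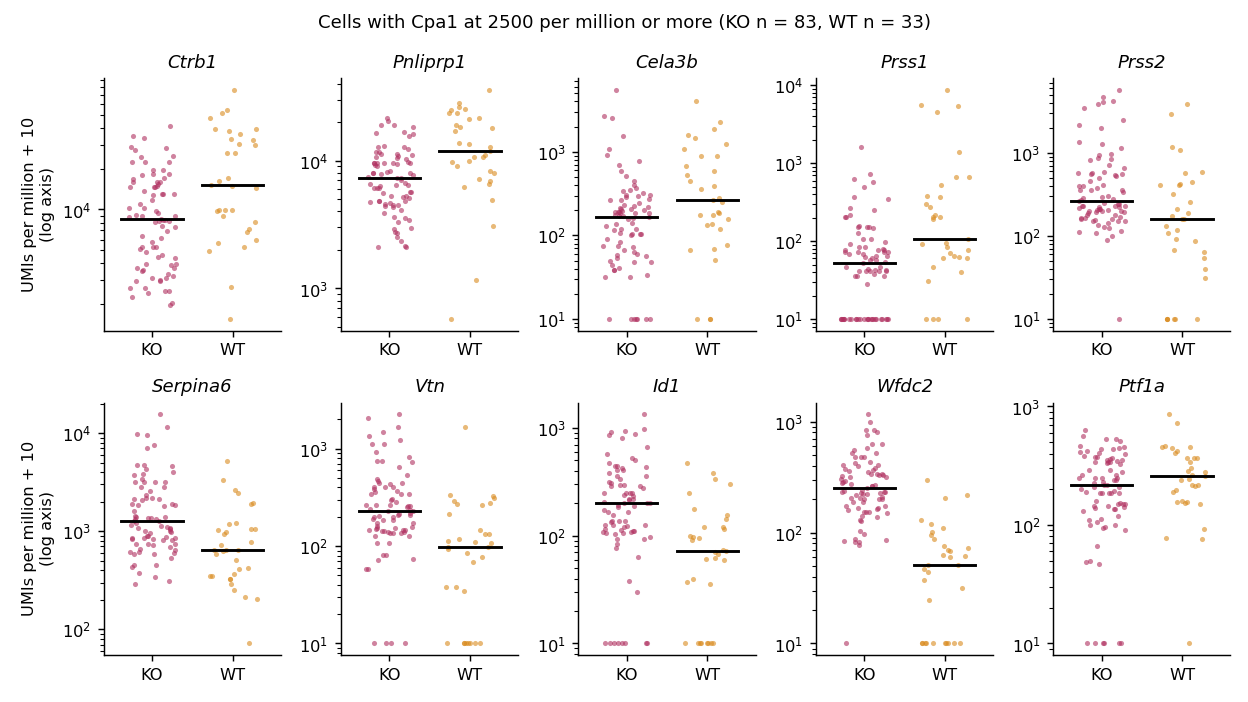
Levels of 10 genes in each of the 83 knockout cells (left of each pair) and each of the 33 WT cells chosen by the same rule, in CPM plus 10 on a log axis, with a bar at each median. Ranges overlap for every gene plotted, and the median of Ctrb1 is 8466 CPM in knockout cells and 15053 CPM in WT cells.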

How the data were processed

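UMI counts per gene and cell were deposited by the authors as 1 table per genotype, with Ensembl identifiers, and no value was normalized. Cell Ranger 2.0.0, Seurat 2.0, DESeq2 1.14.1 and mm10 stand in the submitters' processing notes, without their order. Symbols from reference gene-name tables matched 27645 of 27998 identifiers (positions are from GENCODE M21); the 353 others held 0.0268% of the acinar cells' UMIs. Amy2b was not matched. The cells and gene lists were chosen with earlier results of these data known.

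Cells were filtered and chosen as the report states. Each library was clustered separately with scanpy 1.11.5 (2000 variable genes, 30 components, 15 neighbours, leidenalg 0.10.2 at resolution 1), and a cluster was named from at least 3 detected markers. Scrublet doublets were marked and kept. Counts were summed over cells, and a gene was measured with 50 or more UMIs over both groups. Genes were named as the 25 highest and 10 lowest over other knockout cells, the 10 highest and 10 lowest over WT, the 15 of highest spread (at least 100 UMIs) and the lists' members; the highest and lowest needed 50 UMIs and 10 cells in the higher group. The scripts were tested on simulated data. Poisson, conditional ratio and binomial intervals were exact and computed with scipy 1.17.1 and numpy 2.4.6 in Python 3.11.15. With 1 table per genotype no count model was fitted, and edgeR 4.0.16 and DESeq2 1.42.0 served only to scale libraries in the alternatives. UMIs are counted once per molecule, so depth sets the precision of each value. Reads of near-identical genes (trypsinogens, amylases, Serpina1 copies) may have been split or lost in counting.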

Additional observations from a re-analysis of the deposited data

How the results depend on the processing

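No paired analysis was possible because each genotype has 1 table that pools its 2 sequencing runs. The 83 acinar cells became 67 to 112 over 7 alternative rules, and the 31 acinar genes higher than in other knockout cells ranged from 24 to 36 over 18 alternatives. Of all genes, the 114 higher became 210 with TMM scaling, 225 with DESeq2 scaling, 188 with 1 CPM added and 41 with 50 CPM added. The 698 lower became 385, 363, 2247 and 119 under these, 375 without leukocyte-like, mesenchyme-like and mesothelium-like cells, and 333 against the epithelial clusters alone. In those last 2 settings Cd74 turned to a log2 ratio of 0.058 and 0.055, and Col1a1 turned to 0.25 in the last. Against WT, the 127 higher genes became 249 with 1 CPM added, 32 with 50 CPM added, 45 at 200 UMIs or more and 303 without each gene's 5 highest cells. That last setting takes a larger part of the WT cells than of the acinar cells. The 132 lower became 59 with 50 CPM added, 243 with no minimum and 45 at 200 UMIs. The 13 lower acinar genes became 7 with 50 CPM added and 5 at 200 UMIs. The 51 genes of high spread became 212 with Cpa1 at 1500 CPM and 160 after thinning. The share of cells with a Ptf1a UMI was 42.2% at 2500 UMIs per cell and 92.8% without thinning. Of the named genes' values, 285 of 490 over other knockout cells and 218 of 235 over WT moved by less than the counting interval. The limits to epithelial clusters, to the acinar-like cluster and without the leukocyte-like cell were chosen after seeing the data. Depth limits Bhlha15, Gata4 and other low genes most.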
